A study of Homo sapiens with 4 samples.

Results

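The genes examined here encode the machinery that cuts and polyadenylates the 3′ end of messenger RNA and carries the finished message out of the nucleus. They were taken as a list of 44 named genes, 24 for 3′ end processing and 20 for export, out of 60675 genes counted, by their known function and not by a threshold on measured values. The list was drawn up with earlier results of these data known. The RNA-seq libraries came from LNCaP, a human line established from a lymph node metastasis of prostate cancer that responds to androgen. All cells were kept in hormone-depleted serum and received 1 nM R1881, a synthetic androgen, for 72 h. Of the cultures, 2 had R1881 with the DMSO vehicle and 2 had R1881 with 50 µM CPI-455, which inhibits the KDM5 family of histone H3 lysine 4 demethylases. The comparison therefore asks how the inhibitor changed expression in the presence of androgen, in this single cell line. Androgen-free cells were not analysed here.

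The 3′ end of nearly every messenger RNA is made by cutting the transcript downstream of an AAUAAA-like signal and adding a poly(A) tail. CPSF recognises the signal and cuts, CSTF binds GU-rich sequence downstream, CFI binds UGUA motifs upstream and CFII links the machinery to RNA polymerase II. The TREX complex, which is loaded while the transcript is made, then hands the message to the NXF1-NXT1 receptor for passage through the nuclear pore. The choice of poly(A) site is known to differ between normal and cancer cells, and CFI is known to favour distal sites.

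The vehicle libraries held 19623553 and 20690819 counted fragments and the CPI-455 libraries held 9522920 and 5401588, so 3 fragments, taken as the detection limit, were worth 0.137 and 0.142 normalised counts (CPM, the counts scaled to library size with the TMM factors of edgeR) in the vehicle libraries but 0.337 and 0.595 CPM in the others. The 44 genes took 0.905% and 0.916% of all fragments with vehicle and 0.815% and 0.813% with CPI-455. The libraries also differed between groups in kinds of RNA outside the list. The nuclear non-coding RNA MALAT1 took 0.0884% to 0.114% of fragments with vehicle and 4.95% to 6.49% with CPI-455, and the protein genes of the mitochondrial genome took 1.41% to 1.84% and 0.0791% to 0.0948%. Whether RNA was selected by poly(A) or depleted of ribosomal RNA is not given in the sources used here, and the part of these differences in the changes described here was not tested. All 7 prostate luminal markers checked were expressed (their CPM summed to 789 and 885 in the vehicle libraries and to 311 and 353 in the others), while 2 of 12 markers of leukocytes, fibroblasts, endothelium and basal cells passed the filter on low counts (summed 6.96 to 7.10 CPM and 12.5 to 12.7 CPM over the 12) and the basal keratin KRT5 had no fragment in any library.

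All 44 genes passed the filter. With CPI-455, 10 genes rose and 6 fell by at least 2-fold at an FDR below 0.05 (quasi-likelihood test of edgeR, Benjamini-Hochberg adjusted over 17600 tested genes). The genes that rose were DDX39A, DDX39B, THOC1, THOC2, THOC6 and SARNP of TREX, ENY2 of TREX-2, the nuclear poly(A)-binding protein gene PABPN1, and CPSF1 and SYMPK of the cleavage complex. The genes that fell were CPSF2, CSTF1, both large CFI subunit genes CPSF6 and CPSF7, CLP1 of CFII, and RBBP6. A change of this size was common in these libraries: 21.0% of all tested genes were called higher and 21.3% lower, and among 13813 protein-coding genes the shares were 15.6% and 24.4%. The 44 genes stood at 22.7% higher and 13.6% lower. Their median log2 fold change (log2FC, CPI-455 over vehicle, so that a positive value means higher with the inhibitor) was -0.04, with a range from -2.51 to 2.63. This median was the same as the -0.04 of all tested genes and above the -0.21 of the protein-coding ones.

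The counts differed between processing and export, a difference that was not tested. Of the 24 genes for 3′ end processing, 6 were called lower and 3 were called higher, and the median log2FC was -0.37. Of the 20 export genes, 7 were called higher and none lower, with a median of 0.31. At an FDR below 0.05 without a minimum fold, 12 of the processing genes were lower and 7 higher, and 4 of the export genes were lower and 10 higher, where 32.8% of all tested genes were lower and 29.8% higher, and 38.7% and 26.3% of the protein-coding ones. Both CPI-455 libraries lay below both vehicle libraries for 20 of the 44 genes and above for 20, where this held for 42.8% and 39.1% of all tested genes and for 48.8% and 34.5% of the protein-coding ones. Smaller changes depended more on the processing. The FDR of 10 genes that changed by less than 2-fold (CPSF4, FIP1L1, WDR33, CSTF2, CSTF3, PAPOLA, CHTOP, NXT1, MCM3AP and NUP153) rose above 0.05 under at least 1 other scaling, filter or correction or without 1 library, while the other 23 genes below 0.05 stayed there throughout. Of the 11 genes that did not pass, 8 (CPSF3, PCF11, PAPOLG, XRN2, THOC5, ALYREF, NCBP2 and TPR) had an FDR below 0.05 under at least 1 of these settings. In bulk RNA, fewer cells of a kind and less RNA per cell cannot be told apart, and a fold change is relative to the other RNA of the library. The plot of changes by role shows every gene.

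**Figure D1:**
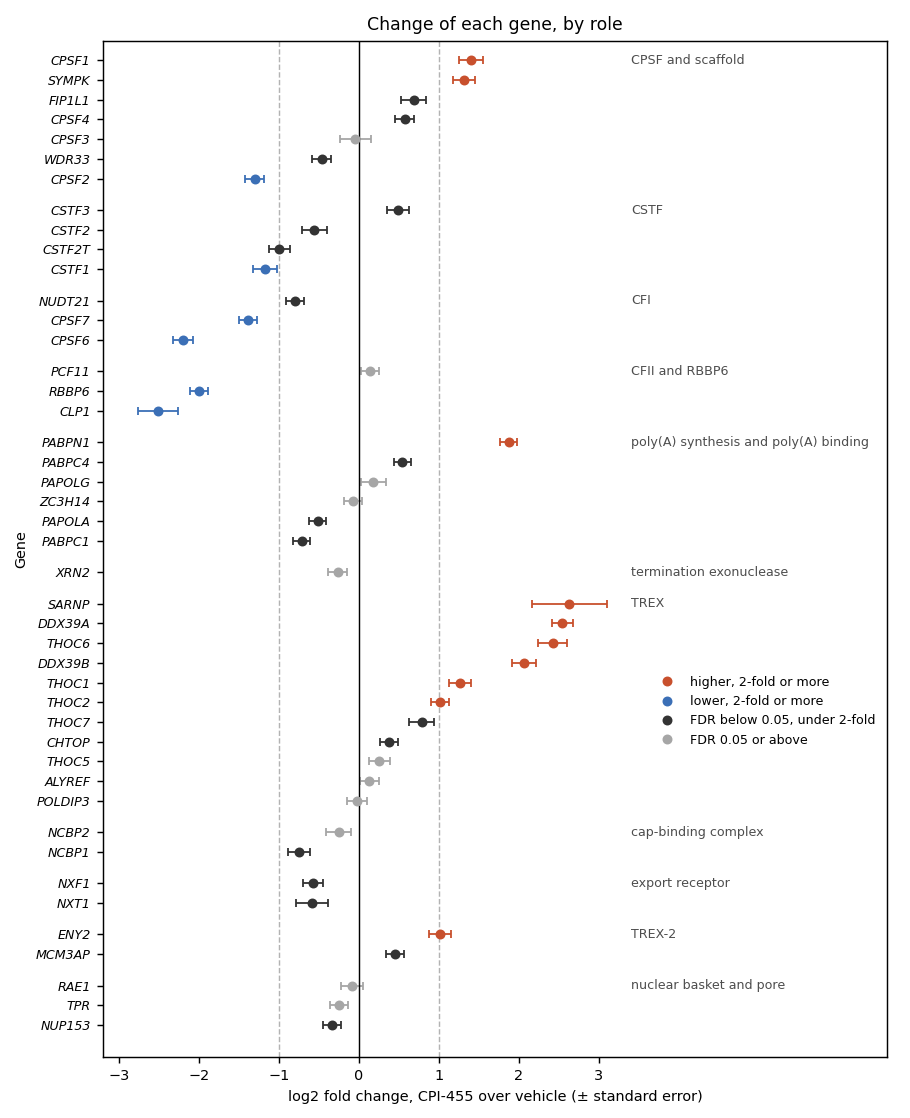
Log2 fold change of each of the 44 genes (horizontal axis, CPI-455 over vehicle, points with standard error bars) listed by role on the vertical axis, with dashed lines at a 2-fold change. Of the TREX genes 6 lie at or beyond the right line, from 1.01 to 2.63, while the genes of CFI lie between -2.20 and -0.80.

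The promoters of 3 genes called changed are shown so that start regions of genes that moved in opposite directions can be read side by side, namely DDX39A and THOC2, which rose, and RBBP6, which fell. They were taken from the called genes whose window held at most 30 bases of annotated exon. CPSF1, ENY2 and THOC1, the called genes on chromosomes 8 and 18, were not candidates. Some had no promoter sequence at hand (8 of the 10 genes called higher had one), and the rest were left out beforehand by chromosome. The RBBP6 window lies inside the span of its gene model used for counting, which starts at 24537693. Each is the 250 bases before the RefSeq start of the gene on GRCh38.p14, read 5′ to 3′ on the gene's strand, at chr19:14419384-14419633 (minus strand), chrX:123733053-123733302 (minus strand) and chr16:24539316-24539565 (plus strand). Capitals mark exact matches, on either strand, to the GC box GGGCGG, the CCAAT box CCAAT, the ETS motif CCGGAAG and the TATA box TATAAA.
DDX39A: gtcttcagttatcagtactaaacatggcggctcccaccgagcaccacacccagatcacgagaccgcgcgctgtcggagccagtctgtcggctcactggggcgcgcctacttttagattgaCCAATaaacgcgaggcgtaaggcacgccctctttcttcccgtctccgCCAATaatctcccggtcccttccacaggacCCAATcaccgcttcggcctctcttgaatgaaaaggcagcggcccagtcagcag
THOC2: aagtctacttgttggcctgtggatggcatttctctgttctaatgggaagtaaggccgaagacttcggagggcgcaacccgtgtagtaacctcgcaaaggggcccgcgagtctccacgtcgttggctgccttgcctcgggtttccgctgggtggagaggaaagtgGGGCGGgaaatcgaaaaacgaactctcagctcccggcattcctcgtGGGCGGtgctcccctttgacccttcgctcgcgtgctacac
RBBP6: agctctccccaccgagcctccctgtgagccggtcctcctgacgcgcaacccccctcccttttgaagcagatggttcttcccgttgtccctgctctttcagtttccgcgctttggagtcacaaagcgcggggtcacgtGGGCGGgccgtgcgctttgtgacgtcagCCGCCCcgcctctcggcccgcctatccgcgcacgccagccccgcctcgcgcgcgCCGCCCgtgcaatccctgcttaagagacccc

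The windows held 20 to 28 CpG dinucleotides and were 58.4% to 68% G or C. The DDX39A window had 3 CCAAT boxes and no GC box, while the RBBP6 window had 3 GC boxes and that of THOC2 had 2, neither with a CCAAT box. Over the 38 genes of the list with a promoter in the table, a GC box was found in 25 (65.8%, against 67.3% of 11155 tested protein-coding genes and 42.3% of all 27305 promoters) and a CCAAT box in 17 (44.7%, against 34.9% and 33.0%). The ETS motif was found in 10 (26.3%, against 15.3% and 8.82%) and the TATA box in 3 (7.89%, against 5.42% and 11.1%). The TATA box was found in 1 of 8 genes called higher and 0 of 6 called lower, and the other motifs in genes of both directions. A GC box was found in 5 of 8 genes called higher and 4 of 6 called lower, a CCAAT box in 4 of 8 and 3 of 6, and an ETS motif in 1 of 8 and 1 of 6.

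Within CPSF, the parts of the complex moved in different directions. CPSF1, the large scaffold subunit that helps to hold the AAUAAA-binding module, had 220.3 and 189 CPM with vehicle and 613 and 462 CPM with CPI-455. It rose by a log2FC of 1.40 (standard error, SE, 0.15, edgeR FDR = 4.185e-05), and the groups did not overlap. SYMPK, the scaffold protein symplekin, had 92.5 and 101 CPM with vehicle and 267 and 214 CPM with CPI-455, a log2FC of 1.31 (SE 0.14, edgeR FDR = 3.166e-05). Its lowest CPI-455 library was above both vehicle libraries. CPSF2, the catalytically inactive partner of the endonuclease, fell from 148 and 161 CPM to 63.3 and 62.1 CPM (log2FC -1.30, SE 0.12, edgeR FDR = 1.583e-05). Once each library had been corrected for the exon length and GC content of its genes, the fall of CPSF2 was less than 2-fold (log2FC -0.86).

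The endonuclease itself, CPSF3, had 65.5 and 77.1 CPM with vehicle and 54.9 and 84.9 CPM with CPI-455. The CPI-455 replicates lay on either side of the vehicle replicates, and no difference was detected (log2FC -0.05, SE 0.20, edgeR FDR = 0.854). This value rests on the disagreement of the CPI-455 replicates, since without CPI-455 replicate 2 the log2FC was -0.42 (edgeR FDR = 0.00201) and without CPI-455 replicate 1 it was 0.23 (edgeR FDR = 0.100). CPSF4 and WDR33, the subunits that contact the AAUAAA signal, differed in direction by less than 2-fold. CPSF4 had 66.1 and 65.2 CPM with vehicle and 102 and 92.2 CPM with CPI-455 (log2FC 0.57). WDR33 had 125 and 131 CPM with vehicle and 97.2 and 87.1 CPM with CPI-455 (log2FC -0.47). FIP1L1, which binds U-rich RNA and poly(A) polymerase, had 24.8 and 28.9 CPM with vehicle and 43.0 CPM in both CPI-455 libraries (log2FC 0.68), and 45.7% of its exon bases are shared with other annotated genes, where fragments were not counted.

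The genes of CSTF were lower except for CSTF3. CSTF1 had 66.0 and 72.0 CPM with vehicle and 28.1 and 33.3 CPM with CPI-455, a fall of 1.18 on the log2 scale (SE 0.15, edgeR FDR = 1.258e-04). The groups did not overlap, but after the correction for length and GC the fall was less than 2-fold (log2FC -0.81). CSTF2, the RNA-binding subunit that contacts GU-rich sequence, had 53.3 and 58.2 CPM with vehicle and 41.7 and 33.3 CPM with CPI-455 (log2FC -0.56, edgeR FDR = 0.0119). Its autosomal retrogene paralog CSTF2T lay just under the 2-fold limit, with 72.5 and 71.3 CPM with vehicle and 36.1 and 35.9 CPM with CPI-455 (log2FC -0.997, edgeR FDR = 1.676e-04). It passed the limit under 6 of the 14 other settings. CSTF3, the scaffold that joins the other subunits, had 51.3 and 52.2 CPM with vehicle and 66.5 and 79.3 CPM with CPI-455 (log2FC 0.49, edgeR FDR = 0.0126).

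Each of the 3 genes of CFI fell. NUDT21, the subunit that recognises UGUA, had 169.7 and 166 CPM with vehicle and 97.6 and 95.8 CPM with CPI-455 (log2FC -0.80, SE 0.11, edgeR FDR = 2.167e-04). CPSF6 (chromosome 12, 69239537 to 69274358, GRCh38) fell 4.6-fold, from 215 and 224 CPM to 49.4 and 45.6 CPM (log2FC -2.20, SE 0.12, edgeR FDR = 1.105e-06). CPSF7, the alternative large subunit, fell 2.61-fold, from 262 and 267 CPM to 98.2 and 104 CPM (log2FC -1.39, SE 0.11, edgeR FDR = 7.569e-06). For each of the 3 genes the replicates of a group lay close together and the groups did not overlap. The falls of CPSF6 and CPSF7 stayed beyond 2-fold under all 14 alternative settings, with log2FC values from -2.39 to -1.65 and from -1.58 to -1.10. That of NUDT21 ranged from -0.99 to -0.28.

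CLP1 and PCF11, the subunits of CFII, differed. CLP1 (chromosome 11, 57648992 to 57661868), an RNA kinase, had 32.1 and 26.2 CPM with vehicle and 4.498 and 5.95 CPM with CPI-455. The CPI-455 values rest on 40 and 30 fragments, and the log2FC of -2.51 (SE 0.25, edgeR FDR = 2.300e-05) was the most negative of the list, at a fall of 5.71-fold. PCF11, which binds the C-terminal domain of RNA polymerase II, had 110 and 111 CPM with vehicle and 118 and 126 CPM with CPI-455, and the difference did not pass the test (log2FC 0.14, SE 0.11, edgeR FDR = 0.305). RBBP6 (chromosome 16, 24537693 to 24572863), a large protein that activates cleavage, had 617 and 594 CPM with vehicle and 148 and 154 CPM with CPI-455 (log2FC -2.001, SE 0.11, edgeR FDR = 1.017e-06).

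Among the genes of poly(A) synthesis and poly(A) binding, PABPN1 rose 3.66-fold. Its gene lies on chromosome 14 from 23321289 to 23326185, and the protein coats the growing tail in the nucleus and stimulates poly(A) polymerase. Its level was 121 and 116 CPM with vehicle and 445 and 424 CPM with CPI-455 (log2FC 1.87, SE 0.11, edgeR FDR = 1.466e-06). Fragments on 16.8% of its exon bases, shared with the read-through gene BCL2L2-PABPN1, were not counted. The cytoplasmic poly(A)-binding proteins moved in opposite directions by less than 2-fold. PABPC1 had 2675 and 2934 CPM with vehicle and 1602 and 1811 CPM with CPI-455 (log2FC -0.72, edgeR FDR = 3.674e-04), and fragments that also match its processed copies were left out by the counting. PABPC4 had 301 and 328 CPM with vehicle and 455 and 462 CPM with CPI-455 (log2FC 0.54, edgeR FDR = 0.00169).

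The canonical poly(A) polymerase PAPOLA had 189 and 198 CPM with vehicle and 133 and 138 CPM with CPI-455 (log2FC -0.52, edgeR FDR = 0.00271), which was -0.04 on the log2 scale after the correction for length and GC. For PAPOLG, a related nuclear polymerase, 32.6 and 34.0 CPM with vehicle stood against 40.0 and 35.1 CPM with CPI-455, which did not pass the test. ZC3H14, a nuclear zinc-finger protein that binds poly(A), and XRN2, the exonuclease that degrades the RNA downstream of the cut and helps to terminate transcription, did not pass the test either. Their log2FC values were -0.08 (SE 0.11) and -0.27 (SE 0.12). The ZC3H14 libraries overlapped between groups, and those of XRN2 did not, at 74.5 and 75.5 CPM with vehicle and 61.1 and 63.5 CPM with CPI-455. A test that is not passed, here and elsewhere, does not show that the levels were equal.

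**Figure D2:**
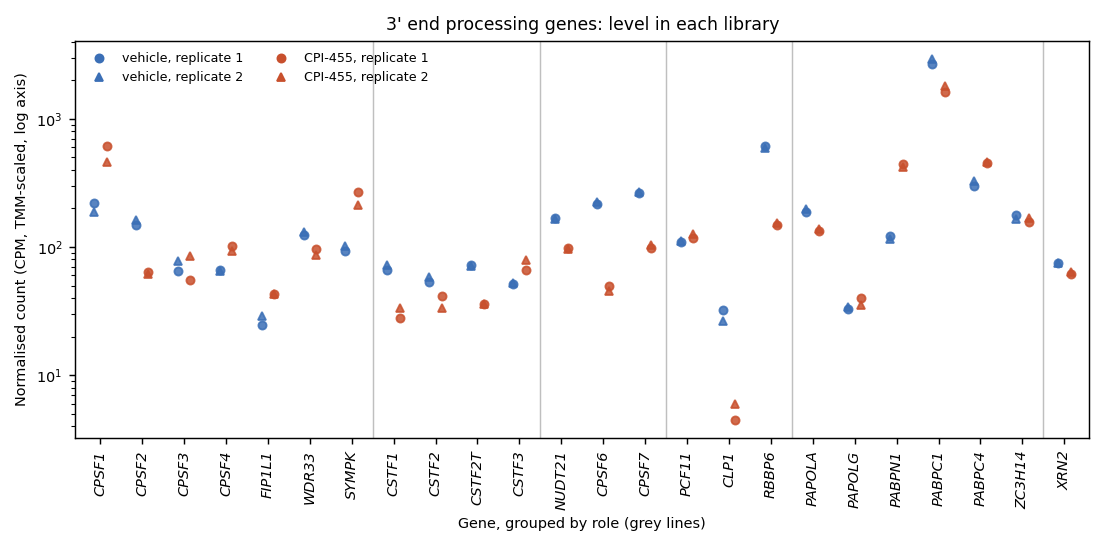
Normalised count of each of the 24 genes for 3′ end processing (vertical log axis, CPM) in each library, with genes ordered by role on the horizontal axis, vehicle in blue, CPI-455 in red, circles for replicate 1 and triangles for replicate 2. The red points of CPSF6, CPSF7, CLP1 and RBBP6 lie well below the blue ones, and those of CPSF1, SYMPK and PABPN1 above.

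TREX was the role with the most rises and the most listed genes, as 6 of its 11 (54.5%) were called higher and none lower. Of all tested genes 21.0% were called higher, and of the protein-coding ones 15.6%. In the second list described below, 2 of 20 other export genes tested were called higher and 5 lower. DDX39A and DDX39B, the closely related DEAD-box ATPases that load the complex onto messenger RNA, both rose strongly. DDX39A (chromosome 19, 14408819 to 14419383) had 86.3 and 73.0 CPM with vehicle and 497 and 430.3 CPM with CPI-455, a rise of 5.82-fold (log2FC 2.54, SE 0.13, edgeR FDR = 9.541e-07). DDX39B, which is encoded on chromosome 6 from 31530219 to 31542448 (GRCh38), had 242 and 179.9 CPM with vehicle and 923 and 830.2 CPM with CPI-455, a rise of 4.16-fold (log2FC 2.06, SE 0.15, edgeR FDR = 4.394e-06). Of its exon bases, 31.1% are shared with other annotated genes, largely with a read-through from ATP6V1G2, and were not counted.

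The THO core of TREX was higher at an FDR below 0.05 for 4 of its 5 listed genes. This held for 29.8% of all tested genes and 26.3% of the protein-coding ones. THOC3, which was kept in the second list, did not pass the test (log2FC 0.27, SE 0.17, edgeR FDR = 0.185). THOC6 rose most, from 19.5 and 20.4 CPM to 125 and 87.3 CPM (log2FC 2.42, SE 0.18, edgeR FDR = 5.373e-06). THOC1 had 46.3 and 40.8 CPM with vehicle and 97.5 and 111 CPM with CPI-455 (log2FC 1.26, SE 0.14, edgeR FDR = 4.418e-05). THOC2, the largest subunit, had 222 and 223 CPM with vehicle and 422 and 476 CPM with CPI-455 (log2FC 1.01, SE 0.11, edgeR FDR = 4.628e-05). The rise of THOC2 lies at the 2-fold limit: the log2FC was 0.88 without CPI-455 replicate 2, 0.99 without either vehicle library and 0.82 with library totals as the only scaling. THOC7 had 42.1 and 49.5 CPM with vehicle and 70.5 and 88.4 CPM with CPI-455 (log2FC 0.79, edgeR FDR = 0.00190). For THOC5, at 54.6 and 59.7 CPM against 67.8 and 68.4 CPM, the test was not passed (log2FC 0.25, SE 0.13, edgeR FDR = 0.117).

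Of the adaptors that ride on TREX, ALYREF and POLDIP3 did not pass the test. ALYREF, which binds NXF1, had 111 and 126 CPM with vehicle and 135 and 124 CPM with CPI-455, overlapping groups with a log2FC of 0.13 (SE 0.12, edgeR FDR = 0.385), and its value turned to -0.43 after the correction for length and GC. POLDIP3 overlapped as well, with 119 and 115 CPM with vehicle and 124 and 104 CPM with CPI-455 (log2FC -0.03). CHTOP had 164 and 154 CPM with vehicle and 196 and 217 CPM with CPI-455 (log2FC 0.37, edgeR FDR = 0.0173). SARNP was called higher with a log2FC of 2.63 (SE 0.47, edgeR FDR = 9.938e-04), from 0.805 and 1.05 CPM to 5.85 and 5.75 CPM, but it was counted at 17 and 23 fragments with vehicle and 52 and 29 with CPI-455. Of its exon bases 38.5% are shared with other annotated genes, so its level is known poorly.

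The receptor that receives the message from TREX was lower. NXF1 had 128 and 119 CPM with vehicle and 78.3 and 88.0 CPM with CPI-455 (log2FC -0.58, SE 0.12, edgeR FDR = 0.00284). Its partner NXT1 had 50.4 and 50.2 CPM with vehicle and 26.4 and 41.4 CPM with CPI-455 (log2FC -0.59, SE 0.20, edgeR FDR = 0.0278). The groups did not overlap, but the CPI-455 libraries of NXT1 differed, and its log2FC was -0.97 without CPI-455 replicate 2 and -0.30 without CPI-455 replicate 1 (edgeR FDR = 0.0665). The cap-binding complex, which joins the 5′ end of the message to TREX, was lower for NCBP1, at 94.1 and 92.5 CPM with vehicle and 50.2 and 61.5 CPM with CPI-455 (log2FC -0.75, SE 0.14, edgeR FDR = 0.00122). NCBP2, its cap-contacting subunit, did not pass the test (79.5 and 74.96 CPM against 55.8 and 74.8 CPM, log2FC -0.25).

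Both genes in this list of TREX-2, the complex that ties transcription to the nuclear pore, were higher. Other TREX-2 genes were kept in the second list. There PCID2 and SEM1 were higher (log2FC 0.76 and 1.33), while CETN2 and CETN3 did not pass the test (log2FC 0.32 and -0.28). ENY2, a small subunit that also belongs to the SAGA coactivator, had 50.1 and 50.5 CPM with vehicle and 92.8 and 110.4 CPM with CPI-455 (log2FC 1.01, SE 0.13, edgeR FDR = 1.542e-04). Like THOC2 it lies at the 2-fold limit, with a log2FC of 0.84 without CPI-455 replicate 2, 0.99 and 0.99 without each vehicle library and 0.82 with library totals only. MCM3AP, the GANP scaffold, had 236 and 232 CPM with vehicle and 341 and 295 CPM with CPI-455 (log2FC 0.45, edgeR FDR = 0.00769). Of the 3 genes of the nuclear basket and pore in the list, none changed by 2-fold. TPR and NUP153 of the nuclear basket had log2FC values of -0.25 (SE 0.11, edgeR FDR = 0.0801) and -0.34 (SE 0.11, edgeR FDR = 0.0267), and RAE1, which binds NUP98 and messenger RNA, had -0.09 (SE 0.14). The NUP153 difference changed sign, to 0.07, after the correction for length and GC.

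**Figure D3:**
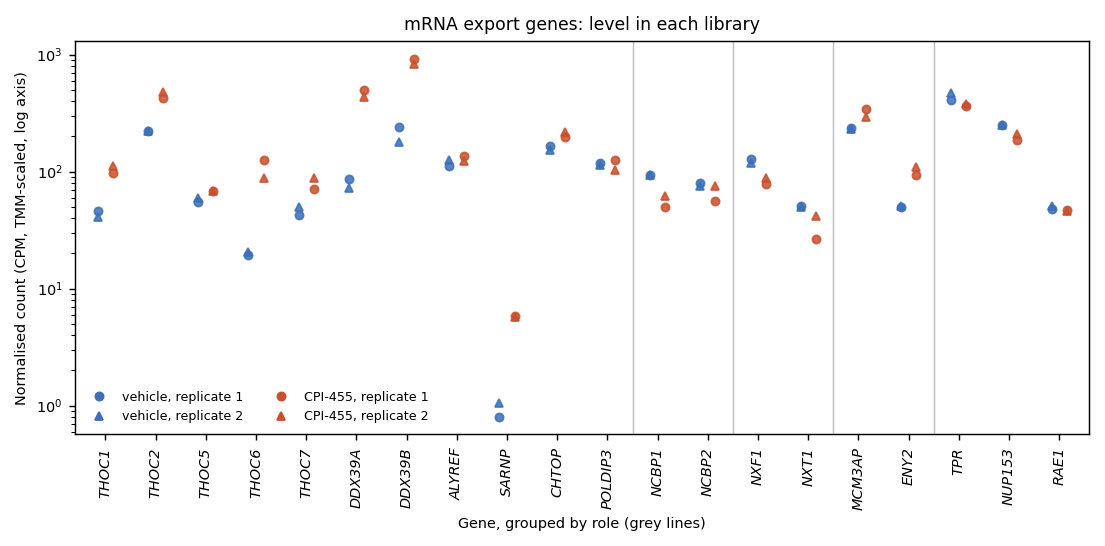
Normalised count of each of the 20 mRNA export genes (vertical log axis, CPM) in each library, with genes ordered by role on the horizontal axis, vehicle in blue, CPI-455 in red, circles for replicate 1 and triangles for replicate 2. DDX39A lies at 73.0 and 86.3 CPM in the vehicle libraries and at 430.3 and 497 CPM in the CPI-455 ones, while ALYREF and POLDIP3 overlap between groups.

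Levels can be compared between genes only per length, so CPM were divided by the kilobases of exon that no other gene shares. On this scale levels differed within complexes. In CPSF with vehicle, CPSF1 stood highest at 35.1 CPM per kb (mean of 2 libraries) and FIP1L1 lowest at 8.76. With CPI-455 the mean was 92.3 for CPSF1 and 4.61 CPM per kb for CPSF2, which became the lowest. In TREX the order of the means also changed. With vehicle ALYREF was the highest at 78.4 CPM per kb, ahead of DDX39B at 43.7 and DDX39A at 20.8. With CPI-455 DDX39B was at 182 CPM per kb and DDX39A at 121, both above ALYREF at 85.5. Exon length here also counts bases outside protein-coding transcripts (60.4% of exon bases in DDX39B, 47.9% in DDX39A and 30.9% in ALYREF). Ranks between genes therefore depend on the annotation. The receptor genes NXF1 and NXT1 stood at 19.96 and 44.8 CPM per kb with vehicle and 13.4 and 30.2 with CPI-455. PABPC1 was the most abundant gene per length in both groups, at 597 and 363 CPM per kb.

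For 5 pairs of paralogs the balance was followed within each library, where the library scaling cancels but a trend with exon length and GC content does not. With 2 libraries in a group no exact test of these ratios can pass, and they are given as a description. CSTF2 was 1.38 and 1.53 times CSTF2T per length with vehicle and 2.17 and 1.74 times with CPI-455. CPSF6 was 0.681 and 0.695 times CPSF7 with vehicle and 0.416 and 0.363 times with CPI-455, so that CPSF7 transcripts were further in excess while both fell. PABPC1 was 12.5 times PABPC4 in both vehicle libraries and 4.94 and 5.50 times with CPI-455. PAPOLA was 3.91 and 3.92 times PAPOLG with vehicle and 2.23 and 2.64 times with CPI-455. DDX39A was 0.449 and 0.510 times DDX39B with vehicle and 0.677 and 0.652 times with CPI-455. After the correction for length and GC, the shifts of 2 pairs were not retained. The log2FC was then -0.772 for CSTF2 and -0.674 for CSTF2T, and 2.381 for DDX39A and 2.361 for DDX39B. The other pairs kept their direction (CPSF6 -1.653 and CPSF7 -1.099, PABPC1 -0.435 and PABPC4 0.834, PAPOLA -0.04 and PAPOLG 0.735). The ratios given here are uncorrected. In each pair the vehicle and CPI-455 libraries did not overlap, but the share of other gene pairs for which this holds was not computed. Separate groups were common for single genes, at 42.8% of all tested genes below and 39.1% above.

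**Figure D4:**
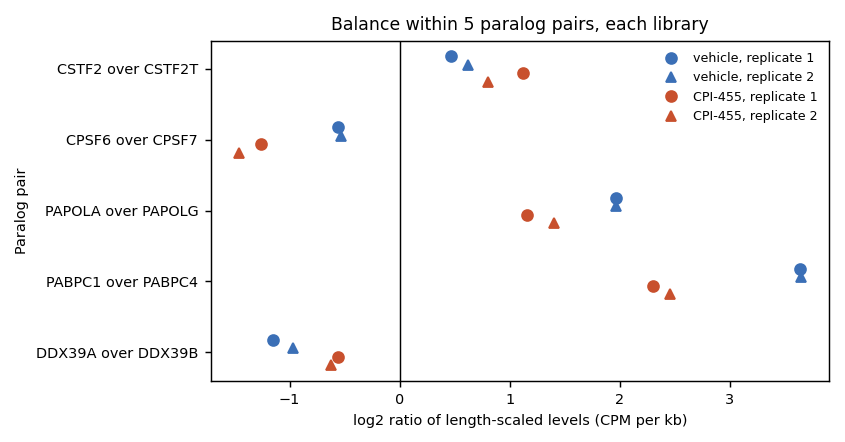
Log2 ratio of the length-scaled levels (horizontal axis, CPM per kb) of 5 paralog pairs (vertical axis) in each library, vehicle in blue and CPI-455 in red. PABPC1 over PABPC4 lies at 3.64 and 3.65 in the vehicle libraries and at 2.30 and 2.46 in the others.

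The gene models were also compared with the changes, using features that the list was not chosen on. A gene's counted exons are the union over all annotated transcripts, which include non-coding ones such as transcripts with a retained intron. Of the counted exon bases of the 44 genes, a median of 23.8% lay outside every protein-coding transcript of GENCODE release 44, against 14.6% over 13777 tested protein-coding genes. The median was 36.3% for the 10 genes called higher (range 19.1% to 70.6%) and 18.4% for the 6 called lower (range 2.71% to 33.0%). The share was 70.6% for THOC1, 60.4% for DDX39B, 55.1% for ENY2 and 47.9% for DDX39A, and 2.71% for CPSF2 and 6.88% for CPSF6. The ranges overlapped: the shares of THOC2 (19.1%), PABPN1 (19.3%), CPSF1 (23.8%), THOC6 (23.9%) and SYMPK (24.8%), which rose, were below those of RBBP6 (26.5%), CLP1 (30.9%) and CPSF7 (33.0%), which fell. Across the 44 genes the Spearman correlation of this share with the log2FC was 0.51, and across the 13777 genes it was 0.29. These are descriptions across genes of the same 4 libraries, and genes are not independent replicates. Gene counts do not separate spliced from retained-intron transcripts, and the part of such transcripts in the changes was not tested.

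**Figure D5:**
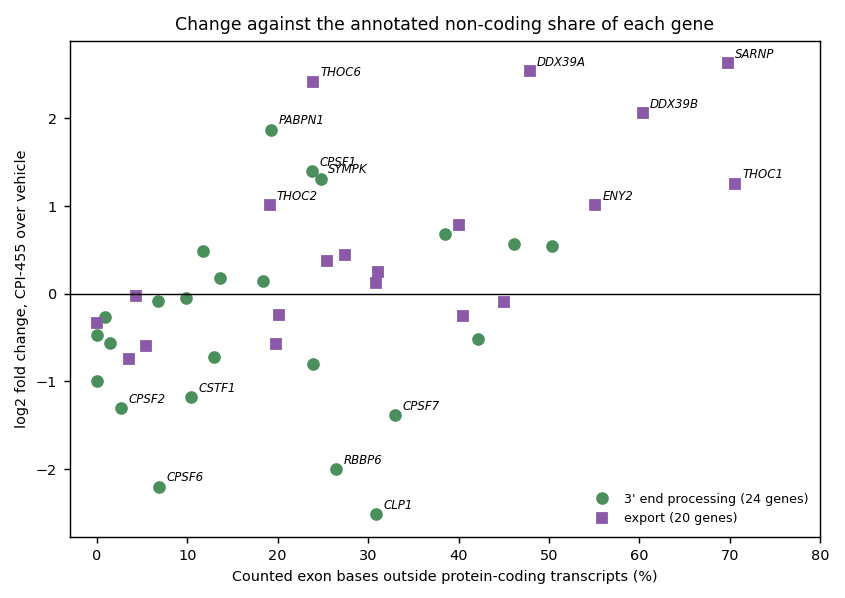
Log2 fold change of each of the 44 genes (vertical axis, CPI-455 over vehicle) against the percentage of its exon bases, shared ones included, that lie outside annotated protein-coding transcripts (horizontal axis), with genes changed by at least 2-fold named. The genes above a share of 50% are higher with CPI-455, from PABPC4 at 0.54 to SARNP at 2.63, and the 6 genes called lower lie at shares of 33.0% or less.

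The same was computed for exon GC content and length. The Spearman correlation of the log2FC with exon GC content was 0.24 across the 44 genes and 0.19 across the 13777 protein-coding genes, and with exon length it was -0.07 and -0.14. The median exon GC content was 51.4% for the genes called higher and 41.9% for those called lower. With a smooth trend on both properties removed from each library, 11 genes were called higher and 5 lower, where 20.6% and 18.3% of all tested genes were. FIP1L1 then joined the genes called higher (log2FC 1.16) and NXT1 those called lower (log2FC -1.32), while CPSF2 and CSTF1 were no longer called.

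A second list held 48 other genes of the same pathways, of which 44 passed the filter. Among these, 10 (22.7%) were called lower and 4 (9.09%) higher. The share called lower was close to the 21.3% of all tested genes and the 24.4% of protein-coding ones, and the share called higher stood beside 21.0% and 15.6%. The median log2FC of these genes was -0.47, against -0.04 over all tested genes and -0.21 over the protein-coding ones. Under the alternative settings 8 to 15 of them were called lower, with 15 reached without CPI-455 replicate 1, and 3 to 6 higher. Of 18 other 3′ end genes tested, 4 were called lower and 2 higher, of 6 histone 3′ end genes 1 lower and none higher, and of 20 other export genes 5 lower and 2 higher. The largest falls were those of RPRD2, which binds the C-terminal domain of RNA polymerase II (188 and 207 CPM with vehicle, 40.7 CPM in both CPI-455 libraries, log2FC -2.28), and of PHAX, the adaptor for export of small nuclear RNA (151 and 158 CPM against 42.9 and 35.5 CPM, log2FC -1.97). NXT2, a paralog of NXT1, and SCAF8, another protein that binds that domain, fell with log2FC values of -1.88 and -1.64. The largest rises were those of PABPC1L, a poly(A)-binding protein paralog (42.6 and 38.8 CPM against 271 and 269 CPM, log2FC 2.73), and of DDX19A, a DEAD-box ATPase of the cytoplasmic face of the pore (24.2 and 21.5 CPM against 71.3 and 85.9 CPM, log2FC 1.78). SEM1, a small subunit of TREX-2 and of the proteasome, and SRRT, the cap-complex partner ARS2, rose with log2FC values of 1.33 and 1.11. Each of these 8 changes had an edgeR FDR at or below 5.654e-05. The nucleoporin genes NUP214, NUP98 and NUP62, named here after their values were seen, were also called lower, with log2FC values of -1.33, -1.14 and -1.01 (edgeR FDR = 1.494e-05, 9.864e-05 and 1.14e-04).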

How the data were processed

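RNA from 2 vehicle and 2 CPI-455 cultures of LNCaP was measured. The authors trimmed the reads with Trim Galore, aligned them to GRCh38 with STAR and, per the file headers, counted fragments per gene with featureCounts 1.5.0-p1 on Ensembl release 83 without strand. By the defaults of that command, multi-mapping fragments and those on exons of more than 1 gene do not count. Without strand, reads of a gene and an overlapping antisense gene cannot be told apart. The deposited values are raw counts. The study's methods call the cultures biological replicates.

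Gene symbols matched 56558 of 60675 genes. TMM scaling was done in edgeR 4.0.16 (R 4.3.3), genes were filtered with filterByExpr (minimum count 10), and groups were compared with glmQLFit and glmQLFTest without covariates. Called genes had an FDR below 0.05 and at least a 2-fold change, the study's thresholds. Standard errors are the log2 fold change over the square root of the F statistic. The promoters printed were limited, after the sequences had been seen, to windows with at most 30 exon bases in both annotations. The test was checked on simulated counts. Promoter sequences are from RefSeq (GRCh38.p14), and gene models from GENCODE release 44.

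The members and lists were chosen with earlier results of these data known. All 44 members are described. Of the second list the 4 largest called changes in each direction are named, among genes whose mean log2 CPM was not under 3. The detection limit of 3 fragments covers counting error only, while standard errors include the spread between replicates. Alternatives were RLE, upper-quartile and total scaling, TMM factors without mitochondrial genes and MALAT1, other filters, a likelihood-ratio test, DESeq2 1.42.0, a replicate block, removal of a length and GC trend (mgcv 1.9.3), and leaving out each library.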

Additional observations from a re-analysis of the deposited data

How the results depend on the processing

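Across 14 alternatives of scaling, filter, test and libraries, 5 to 7 of the 44 genes were called lower and 8 to 11 higher, and 8 of the 10 genes called higher and 4 of the 6 called lower kept their calls throughout. With library totals, with no filter, and without either vehicle library or CPI-455 replicate 2, THOC2 and ENY2 were no longer called. Without a minimum fold, 16 genes were lower and 17 higher at an FDR below 0.05. Over the 34 genes with under 10% of their exon bases shared, 6 were called higher, since PABPN1, THOC6, DDX39B and SARNP were left out, and the median log2 fold change was -0.25. The median of the 44 genes was -0.02 with RLE factors, 0.14 with upper-quartile factors, -0.23 with library totals, -0.19 with no filter, 0.01 with at least 10 counts in every library, -0.03 with the likelihood-ratio test, -0.01 with DESeq2, -0.05 with the replicate block, 0.19 with the length and GC trend removed, and -0.04 to 0 without each library. The median of all tested genes also moved, to 0.14 with upper-quartile factors and -0.23 with totals, so small directions are relative to it. It parted most from that of the 44 genes with no filter (-0.41 over all genes), with the trend removed (0.03) and without CPI-455 replicate 1 (-0.19). Smaller gaps were seen under other settings. The median of all genes was 0.02 without either vehicle library and -0.09 without CPI-455 replicate 2. NUP153 reversed, to 0.072, with the length and GC trend removed (edgeR FDR = 0.517). The causes were not tested beyond what each alternative changes.

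The labels number replicates 1 and 2 in both groups without saying that same-numbered cultures belong together, and the deviations of same-numbered libraries correlated at 0.04 over genes. The replicate block left 6 genes called lower and 10 higher. With a CPI-455 library left out, the remaining one is assumed to vary like the vehicle libraries. The CPI-455 libraries are the shallower ones, which limits SARNP and CLP1 most.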
